A study of Mus musculus with 16 samples.

Results

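The measurements below concern 9 scavenger and apoptotic-cell receptors, Cd36, Msr1, Scarb1, Marco, Cd68, Stab1, Lrp1, Cd93 and Colec12, in microglia sorted from mouse brain. The rule names them and holds no measured value, but it was set with earlier results of these data known. Of the 9, 8 were analysed among the 20267 genes of the table, and Marco was not analysed here. All 8 passed the filter of at least 1 CPM (reads counted per 1000000 assigned reads) in at least 4 libraries, as did 13912 genes in all. The study asked whether loss of the kinase p38α in microglia changes an amyloid mouse model of Alzheimer's disease (AD). AD p38KO mice carried APPswe/PS1dE9, a transgene pair that drives amyloid deposition, with p38 fl/fl and Cx3cr1-creERT2+/-. AD p38+/+ mice carried APPswe/PS1dE9 and p38 fl/fl without Cre. WT p38KO mice carried p38 fl/fl and Cx3cr1-creERT2+/- without APPswe/PS1dE9, and WT p38+/+ mice carried p38 fl/fl alone. The animals were on a C57BL/6J background, and all of them, Cre-negative controls included, received a tamoxifen diet for 4 weeks from 5 months of age. At 11 months, cells positive for CD11b and P2ry12 were sorted from one brain hemisphere of each mouse, and 4 mice of both sexes per group gave 1 library each. Cre is driven from the Cx3cr1 locus, so Cre carriers also differ from controls at Cx3cr1 itself, which cannot be told apart from p38 loss. Mice were taken for RNA quality from 6 per group. Mouse 1 of each group and mouse 2 of WT p38KO were female and the others male, so sex was not balanced between groups.

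Scavenger receptors are surface proteins of macrophages that bind modified lipoproteins, polyanions, amyloid peptides and the membranes of dying cells, and carry them to endosomes and lysosomes. Cd36 and Scarb1 are class B receptors for fatty acids and lipoprotein lipids, while Msr1, Marco and Colec12 have collagen-like stalks. Cd68 is a heavily glycosylated lysosomal membrane protein used as a marker of phagocytic macrophages. Stab1 clears modified proteins and dying cells, Lrp1 is a large endocytic receptor for apolipoprotein E and many other ligands, and Cd93 is a C-type lectin-like protein of endothelial and myeloid cells that takes part in the removal of apoptotic cells.

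Scarb1 and Msr1 each give a pair of receptor proteins by splicing, and the pairs are separated in the transcript values below, so the joints are shown. In Scarb1 (chr5:125277087-125341094, minus strand, mm10), SR-BI and SR-BII share 1401 coding bases and then read different exons that encode the cytoplasmic tail. In Msr1 (chr8:39581685-39642673, minus strand), SR-AI goes on after 1054 shared coding bases into the exons of a cysteine-rich domain, whereas SR-AII ends after 8 more coding bases and a stop codon. In each line the 30 bases before the joint are in lower case and the bases particular to the form are in capitals, read 5′ to 3′ from the GENCODE transcripts of GRCm38. The capitals lie at chr5:125281174-125281233 for SR-BI, chr5:125277806-125277865 for SR-BII, chr8:39589419-39589478 for SR-AI and chr8:39605972-39605982 for SR-AII.
Scarb1 SR-BI: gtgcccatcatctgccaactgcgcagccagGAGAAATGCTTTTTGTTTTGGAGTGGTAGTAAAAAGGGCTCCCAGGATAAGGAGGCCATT
Scarb1 SR-BII: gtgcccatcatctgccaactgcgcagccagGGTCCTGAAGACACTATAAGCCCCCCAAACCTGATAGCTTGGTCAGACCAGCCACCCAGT
Msr1 SR-AI: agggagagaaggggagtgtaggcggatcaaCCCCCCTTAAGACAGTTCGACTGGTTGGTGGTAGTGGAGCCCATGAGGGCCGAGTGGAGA
Msr1 SR-AII: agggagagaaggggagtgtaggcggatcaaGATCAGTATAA

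Cd68 (chr11:69664213-69666153, minus strand) was the receptor that rose in AD microglia, so its promoter is shown too. A RefSeq promoter of 250 bases before and 50 after the gene start was in the table used for 4 of the 8 receptors. For Cd68 it covers chr11:69666121-69666420 (GRCm38.p6, minus strand). Capitals mark matches on either strand to the AP-1 letters TGANTCA and to the PU.1 core GAGGAA. The letters of an E-box, CACGTG, were not in this window.
Cd68 promoter: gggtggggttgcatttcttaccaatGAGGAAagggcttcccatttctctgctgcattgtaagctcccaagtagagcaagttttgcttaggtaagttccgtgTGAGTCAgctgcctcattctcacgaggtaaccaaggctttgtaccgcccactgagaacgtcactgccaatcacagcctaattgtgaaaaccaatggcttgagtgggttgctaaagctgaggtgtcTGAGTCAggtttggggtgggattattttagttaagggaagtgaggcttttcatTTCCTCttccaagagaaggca

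The AP-1 letters began at -149 and -24 from the gene start and the PU.1 letters at -225 and 29, and the searched motifs do not overlap there. Among 32851 promoters of the same length, 7.81% held the AP-1 letters, 28.3% the PU.1 core and 7.15% the E-box. Cd68 also has a transcript with a longer coding sequence (1005 against 978 bases), called the longer form below. The whole transcript is shorter than the main one (1008 against 1230 bases). Its coding sequence holds 27 further bases (chr11:69665476-69665502, capitals) between shared ones.
Cd68 longer form: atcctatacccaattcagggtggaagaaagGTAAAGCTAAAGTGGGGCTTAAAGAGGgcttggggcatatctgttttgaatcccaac

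The 16 libraries held about 12290000 to 16430000 reads, estimated from the CPM worth of 1 read (0.0609 to 0.0814 CPM), so a count of 0 allows up to 0.183 to 0.244 CPM (3 reads). The sorted cells carried microglial markers, with Csf1r between 15556 and 20655 CPM and P2ry12 between 6639 and 10100 CPM. Mapk14 encodes p38α, and its transcript ENSMUST00000062694 ran from 0.0574 to 0.248 CPM in AD p38KO and from 58.5 to 71.0 CPM in AD p38+/+ libraries, and from 0.0589 to 0.214 CPM in WT p38KO against 47.1 to 82.6 CPM in WT p38+/+ libraries. Mapk14 as a whole, other transcripts included, averaged 152 ± 11 CPM in AD p38KO and 164 ± 9.5 CPM in AD p38+/+ libraries, and 159 ± 14 CPM in WT p38KO against 180 ± 22 CPM in WT p38+/+ libraries (SD, n = 4 each). AD p38KO libraries had the fewest genes detected, 15485 to 16852, against 16987 to 18054 in the other 12 libraries. The summed CPM of 8 border-associated macrophage markers ran from 33.9 to 80.2 in AD p38KO, 33.5 to 156 in AD p38+/+, 59.3 to 132 in WT p38KO and 25.1 to 79.6 in WT p38+/+ libraries.

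The receptors differed widely in level. Per kilobase of transcript, Cd68 led at 893 ± 144 CPM per kilobase (SD over 16 libraries), followed by Lrp1 at 135 ± 24 and Stab1 at 101.2 ± 21.4. Scarb1 came next at 28.0 ± 5.3 CPM per kilobase. Colec12 at 3.66, Msr1 at 1.89, Cd36 at 1.65 and Cd93 at 0.206 CPM per kilobase were low, and the ranges over libraries of Colec12, Msr1 and Cd36 overlapped. In this sort the abundant receptors were therefore a lysosomal protein and the large endocytic receptors.

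**Figure D1:**
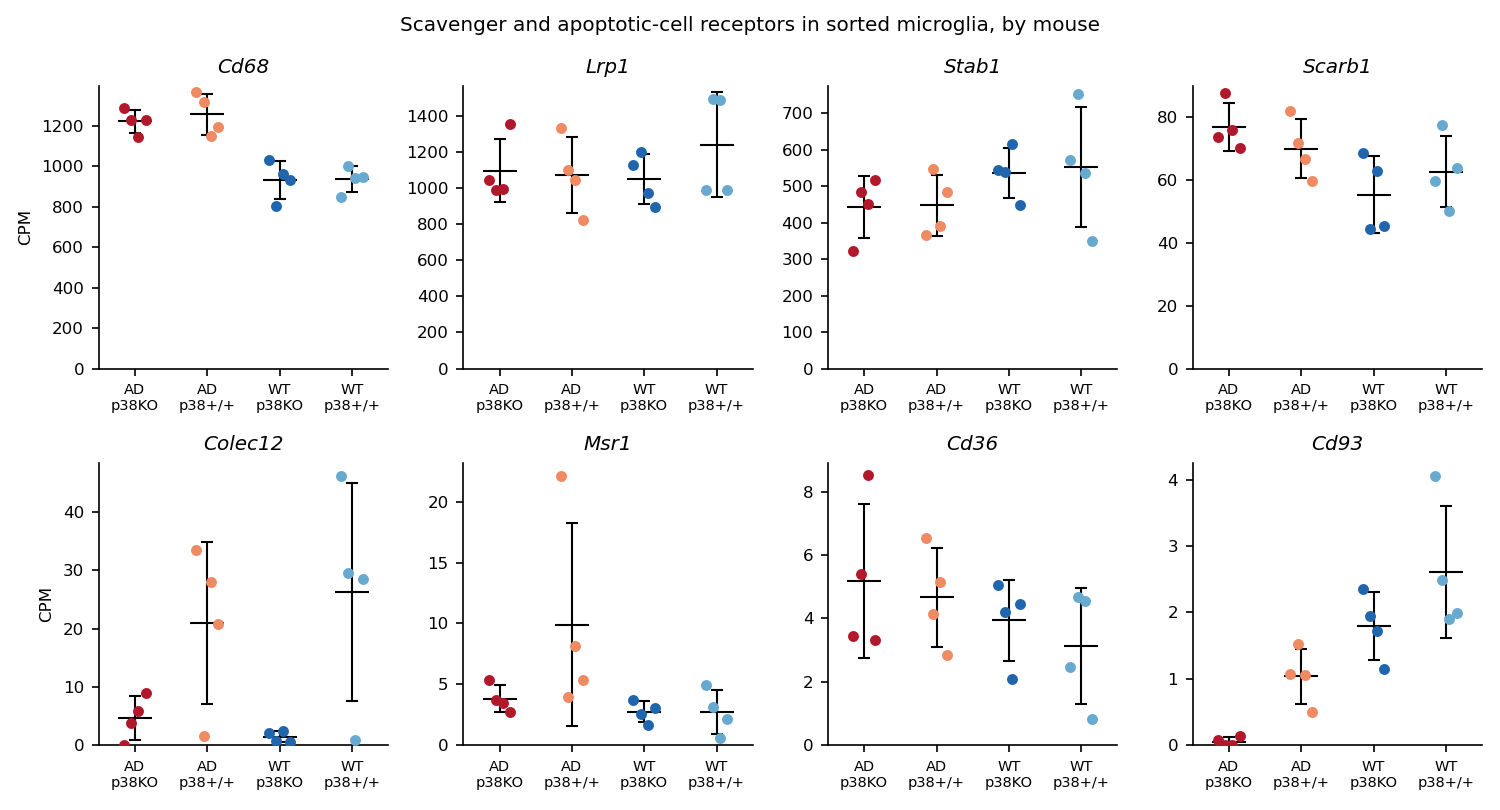
Level of each receptor in CPM (linear axes that start at 0) in the 4 libraries of each group, with the mean and SD (lower bars end at 0 where the SD exceeds the mean). All 8 AD libraries lie above all 8 WT libraries for Cd68, and the 4 AD p38KO libraries lie at the bottom for Cd93.

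The question of what the AD transgenes change in these receptors was asked over both p38 genotypes together. Cd68 rose and Cd93 fell, and the other 6 receptors did not pass the test. Thus 2 of 8 receptors were called, against 143 of 13912 genes (1.03%), of which 129 were higher and 14 lower. The median log2 fold change was 0.37 over the 8 receptors and -0.03 over all genes tested. These and the following calls come from limma on log2(CPM + 0.5) with Benjamini-Hochberg adjustment over all genes tested, at an adjusted p under 0.05. In bulk RNA, more cells of a type and more RNA per cell cannot be told apart.

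In animals with p38, 1 of 8 receptors was called between AD and WT (Cd68, higher), against 50 of 13912 genes (0.359%). Without p38, 1 of 8 was called (Cd93, lower), against 45 genes (0.323%). Loss of p38 over both backgrounds gave no call among the 8 by limma, against 11 genes (0.0791%). An unadjusted p under 0.05 was held by 2 receptors, Colec12 and Cd93, and by 821 of 13912 genes. Within AD, p38KO against p38+/+ gave no call among the 8, against 7 genes (0.0503%). There, 1 receptor and 972 genes had an unadjusted p under 0.05. Within WT, p38KO against p38+/+ gave no call among the 8, against 1 gene (0.00719%). Again 1 receptor had an unadjusted p under 0.05, beside 491 genes. The interaction, which asks whether the AD effect differs with p38, gave a call for none of the 8 receptors and 0 of 13912 genes (0%), with 1 receptor and 546 genes at an unadjusted p under 0.05. So a call in animals with p38 and none without it, or the reverse, was not shown to be a difference between them.

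Whether groups overlapped was counted apart from the test, and the receptors it sets apart are not the same as those called. Between all AD and all WT libraries, Cd68 alone did not overlap, against 0.575% of genes, and between all p38KO and all p38+/+ libraries none of the 8 was apart, against 0.0575%. Between AD and WT mice with p38, Cd68 and Cd93 did not overlap (5.23% of genes), and without p38, Scarb1, Cd68 and Cd93 did not (4.93%). Between p38KO and p38+/+ mice, Cd93 did not overlap in AD (3.34%) and no receptor was apart in WT (2.72%).

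**Figure D2:**
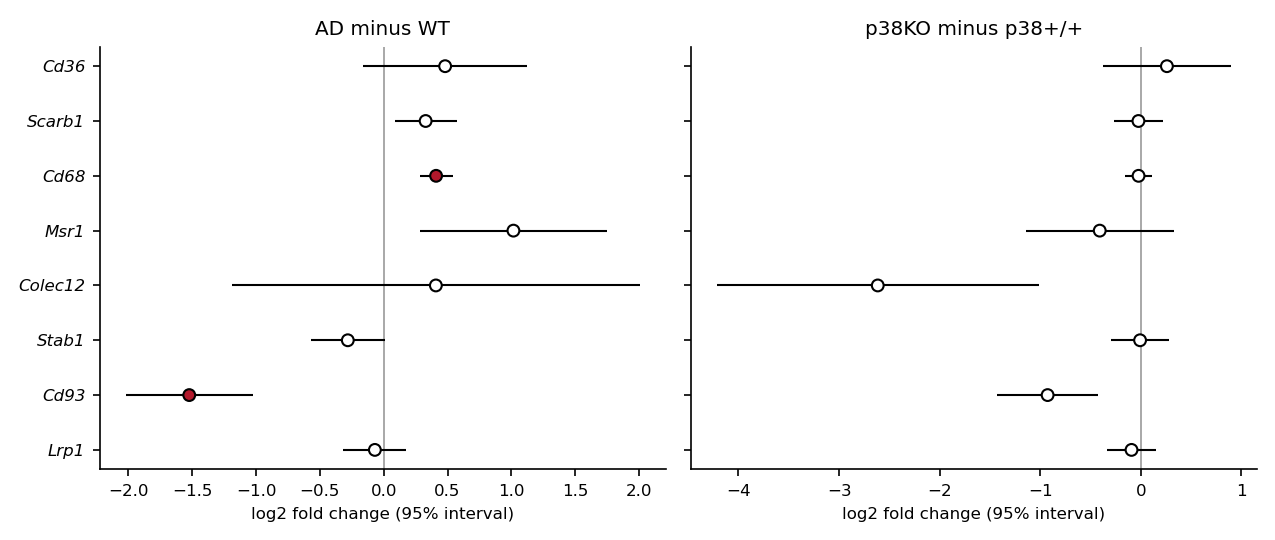
Fitted log2 fold change of each receptor with its 95% interval, for AD minus WT over both p38 genotypes (left) and p38KO minus p38+/+ over both backgrounds (right). Filled points passed an adjusted p of 0.05: Cd68 at 0.41 and Cd93 at -1.52 on the left, none on the right.

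Cd68 had 1288, 1229, 1147 and 1228 CPM in AD p38KO libraries and 1369, 1316, 1151 and 1193 CPM in AD p38+/+ libraries. It had 1032, 804, 961 and 933 CPM in WT p38KO libraries and 850, 1004, 940 and 948 CPM in WT p38+/+ libraries. The lowest AD library thus stood above the highest WT library, in both p38 genotypes. Cd68 averaged 1240 ± 79 CPM in AD and 934 ± 75 CPM in WT libraries (SD, n = 8 each), a fitted rise of 0.41 on the log2 scale (standard error 0.06, 95% interval 0.28 to 0.54, limma adjusted p = 0.00122). The rise was called under all 30 alternative settings.

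With p38 present, the rise of Cd68 was 0.42 (limma adjusted p = 0.0403), and in its absence the difference was 0.40 (limma adjusted p = 0.0700). Each had an unadjusted exact permutation p of 0.0286 (two-sided, n = 4 each), the smallest that 4 against 4 mice allow. Any groups of 4 that do not overlap give this value, so it restates the lack of overlap. The call with p38 held under 13 of 31 settings, with adjusted p between 0.0269 and 0.209. It was lost when any AD p38+/+ mouse was left out (adjusted p of 0.209, 0.156, 0.0509 and 0.0638 without mouse 1, 2, 3 and 4). It was also lost without WT p38+/+ mouse 1, 3 or 4 (0.131, 0.123 and 0.0865), AD p38KO mouse 2 (0.0615) or WT p38KO mouse 3 or 4 (0.0592 and 0.0623), while the fold change stayed between 0.38 and 0.47 on the log2 scale. The AD effect without p38 minus that with p38 was -0.03 (95% interval -0.29 to 0.23). Loss of p38 left Cd68 within -0.15 to 0.11 on the log2 scale over both backgrounds (95% interval around -0.02).

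Nearly all Cd68 signal came from the main transcript, ENSMUST00000018918, with 94.8 to 96.3% of the gene's CPM in every library. The form with the longer coding sequence, shown above, took 3.63 to 5.18%. Its medians were 4.65% in AD p38KO, 4.24% in AD p38+/+, 4.64% in WT p38KO and 4.05% in WT p38+/+ libraries. The ranges of that share overlapped between all groups. Cd68 starts close to Eif4a1, and whether reads were counted by strand is not given in the sources used here.

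The genes most like Cd68 over the 16 libraries, by Pearson r of log2(CPM + 0.5), were Cox6a2 (r = 0.95), Capg (0.95) and Ctsz (0.95). Ctsz encodes the lysosomal protease cathepsin Z and Capg an actin-capping protein. With the group means taken out, r was 0.73 for Cox6a2, 0.74 for Capg and 0.71 for Ctsz. All 3 rose in AD microglia too, by 2.52, 1.33 and 0.49 on the log2 scale (limma adjusted p = 2.07e-05, 4.61e-05 and 0.000408), and the 16 points share their groups, so r is a description.

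Cd93 (chr2:148436640-148443563, minus strand) was scarce in every library. AD p38KO libraries had 0.0752, 0, 0 and 0.135 CPM, which is 1, 0, 0 and 2 reads. AD p38+/+ libraries had 1.07, 1.52, 1.06 and 0.497 CPM. WT p38KO libraries had 2.36, 1.95, 1.73 and 1.15 CPM, and WT p38+/+ libraries had 4.06, 2.49, 1.90 and 1.99 CPM. The group medians thus went up in the order AD p38KO, AD p38+/+, WT p38KO and WT p38+/+, and neighbours in that order overlapped except AD p38KO and AD p38+/+.

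Over both p38 genotypes Cd93 fell by 1.52 on the log2(CPM + 0.5) scale in AD microglia (standard error 0.24, 95% interval -2.02 to -1.03, limma adjusted p = 0.00173). It averaged 0.544 ± 0.594 CPM in AD and 2.20 ± 0.85 CPM in WT libraries (SD, n = 8 each). Without p38 the fall was 2.03 (fold change -2.03, limma adjusted p = 0.00950), and with p38 the difference was -1.01 (limma adjusted p = 0.408). Both had an exact permutation p of 0.0286 (two-sided, n = 4 each). In reads, AD p38KO held 3 of 53520000 and WT p38KO 96 of 53990000, a ratio of 0.0315 (95% exact interval 0.00639 to 0.0949, counting error only). AD p38+/+ held 60 reads and WT p38+/+ 153, a ratio of 0.400 (0.292 to 0.543). The difference between these AD effects was -1.02 on the log2 scale (95% interval -2.02 to -0.02, limma unadjusted p = 0.0455, adjusted p = 1.00), which did not pass.

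Loss of p38 went with lower Cd93 in AD, by -1.44 on the log2 scale (limma adjusted p = 0.235, exact permutation p = 0.0286, n = 4 each), and with -0.42 in WT (limma adjusted p = 1, 95% interval -1.12 to 0.29). The 3 reads of AD p38KO against the 60 of AD p38+/+ make a ratio of 0.0540 (95% exact interval 0.0108 to 0.165). Over both backgrounds the p38KO effect was -0.93 (unadjusted p = 0.00106, limma adjusted p = 0.365). None of these passed the test over all genes.

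The AD call of Cd93 held under 28 of 29 alternatives and the call without p38 under 26 of 30, the exceptions being given in the closing section. Values with so few reads depend on the constant added before the log, and the fold understates the difference in reads. For p38KO against p38+/+ in AD it ran from -8.24 with 0.0001 CPM as the constant to -0.75 with quantile scaling. The number of genes detected moved with Cd93, with r = 0.64 over 16 libraries (Spearman's rho 0.41), and its part in the result was not tested. Endothelial cells are a known source of Cd93. The summed CPM of 6 endothelial markers lay between 26.6 and 32.2 in AD p38KO, 16.8 and 32.7 in AD p38+/+, 27.4 and 46.3 in WT p38KO and 29.1 and 41.7 in WT p38+/+ libraries. Most of that was Pecam1, which myeloid cells also express, while Cldn5 was at 0 in 12 of 16 libraries and at most 2.11 CPM. Of the list, 2 markers passed the filter and neither was called for either effect, and the part of endothelial RNA in Cd93 was not tested.

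Msr1, the class A receptor, was highest in AD p38+/+ microglia without passing the test. AD p38KO libraries had 5.34, 3.74, 3.42 and 2.71 CPM and AD p38+/+ libraries had 22.14, 3.93, 8.16 and 5.32 CPM. WT p38KO libraries had 3.66, 2.53, 1.65 and 3.08 CPM and WT p38+/+ libraries had 4.93, 3.16, 0.607 and 2.12 CPM. AD p38+/+ mouse 1 stood well above the rest. Mouse 1 was a female in every group and had the most Msr1 of its group each time. The other female, WT p38KO mouse 2 (2.53 CPM), lay below the male WT p38KO mouse 4 (3.08 CPM). The part of sex in the Msr1 values was not tested. All AD p38+/+ libraries were above all WT p38KO libraries, by 3.93 against 3.66 CPM at the closest, and the other groups overlapped. That pair of groups differs in both the transgenes and p38, and the share of all genes apart in it was not counted. The AD effect was 1.02 on the log2 scale (standard error 0.35, limma adjusted p = 0.232), 1.61 with p38 (0.326) and 0.42 without it (0.835). The p38KO difference was -1.01 in AD (limma adjusted p = 0.731) and 0.19 in WT (1). Over the alternatives the difference in AD ran from -1.32 to -0.53, the weakest being that without AD p38+/+ mouse 1, and the AD effect without p38 from 0.24 (without WT p38KO mouse 3) to 0.67 (with sex as covariate).

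The library with the most Msr1 also had the most RNA of border-associated macrophages, resident macrophages of the meninges and perivascular spaces. AD p38+/+ mouse 1 held 49.7 CPM of Mrc1, 37.3 of F13a1, 17.9 of Pf4 and 11.4 of Ms4a7, and 156 CPM over the 8 markers, and 5 of the 8, these 4 included, were highest in that library. Across the 16 libraries Msr1 and that sum had r = 0.40 and rho = 0.15. No marker of the list passed the test for either effect, and their part in the Msr1 values was not tested. Without AD p38+/+ mouse 1, and under every other alternative, the AD effect on Msr1 kept its sign, between 0.78 and 1.19 on the log2 scale with an adjusted p between 0.0602 and 0.424.

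The truncated form SR-AII carried most of the CPM of Msr1. It took a median of 76.3% of the gene's CPM over 16 libraries (40.8 to 96.1%), against 20.9% for SR-AI (1.39 to 59.2%). The SR-AII transcript is the longer one, with 3636 bases against 1424 for SR-AI. CPM is not corrected for length, so these are shares of reads and not of molecules. SR-AII averaged 3.25 ± 1.10 CPM in AD p38KO and 7.06 ± 5.81 CPM in AD p38+/+ microglia, and 1.80 ± 0.64 CPM in WT p38KO against 2.02 ± 1.65 CPM in WT p38+/+ microglia (SD, n = 4 each). SR-AI averaged 0.413 ± 0.433 CPM in AD p38KO and 2.49 ± 2.51 CPM in AD p38+/+ microglia, and 0.804 ± 0.719 CPM in WT p38KO against 0.683 ± 0.494 CPM in WT p38+/+ microglia. At 8 to 331 reads per library for the whole gene, these shares are rough. Neither form passed the test.

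**Figure D3:**
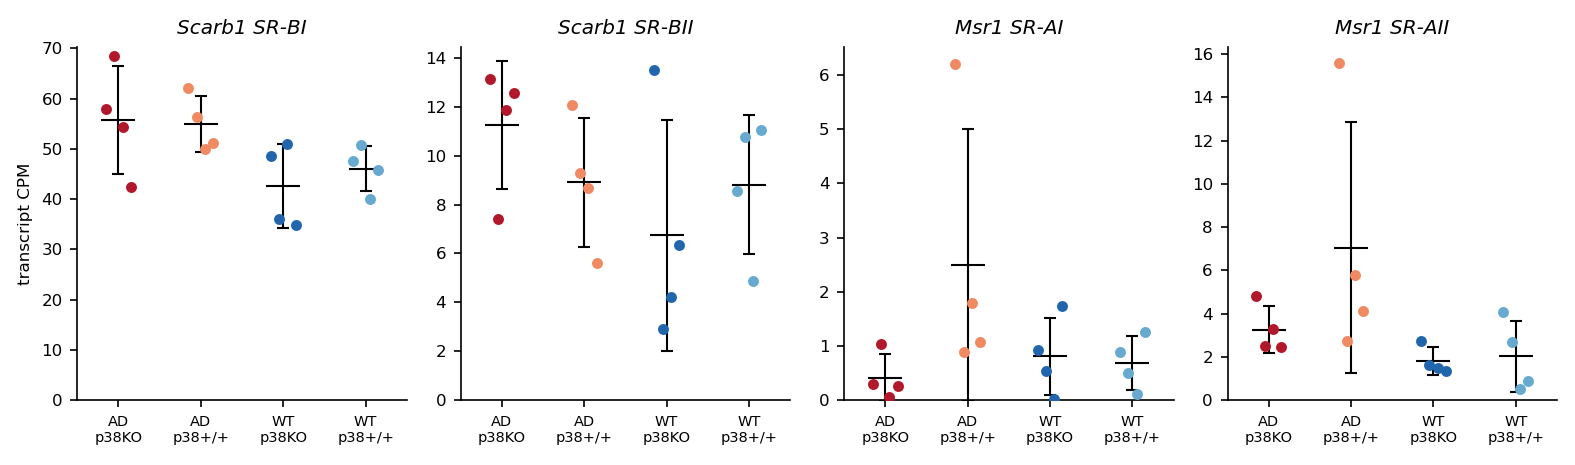
CPM of the SR-BI and SR-BII transcripts of Scarb1 and of the SR-AI and SR-AII transcripts of Msr1 in each library (linear axes that start at 0), with the mean and SD per group. SR-BI lies above SR-BII and SR-AII mostly above SR-AI, and AD p38+/+ mouse 1 is highest for both Msr1 forms at 6.21 and 15.6 CPM.

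Scarb1, the high-density lipoprotein receptor, had 73.6, 87.6, 75.9 and 70.1 CPM in AD p38KO and 81.8, 71.6, 66.6 and 59.5 CPM in AD p38+/+ libraries. In WT p38KO libraries it had 68.5, 44.3, 62.8 and 45.4 CPM, and WT p38+/+ libraries had 59.6, 77.5, 49.9 and 63.6 CPM. All AD p38KO libraries were above all WT p38KO libraries, while the p38+/+ groups overlapped. The AD effect of 0.33 on the log2 scale (95% interval 0.09 to 0.57) had a limma adjusted p of 0.244. Without p38 it was 0.49 (limma adjusted p = 0.314, exact permutation p = 0.0286, n = 4 each) and with p38 0.16 (limma adjusted p = 0.951, from 0.062 without WT p38+/+ mouse 3 to 0.27 without WT p38+/+ mouse 2). The p38KO effect over both backgrounds was -0.02 (95% interval -0.27 to 0.22).

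SR-BI carried a median of 77.5% of Scarb1 (60.5 to 86.0%) and SR-BII 13.9% (6.57 to 19.7%). SR-BI averaged 55.8 ± 10.8 CPM in AD p38KO and 54.9 ± 5.5 CPM in AD p38+/+ microglia, and 42.6 ± 8.3 CPM in WT p38KO against 46.0 ± 4.5 CPM in WT p38+/+ microglia (SD, n = 4 each). The median SR-BII share was 16.8% in AD p38KO, 13.01% in AD p38+/+, 10.3% in WT p38KO and 14.1% in WT p38+/+ libraries, with ranges that overlapped. The genes most like Scarb1 were Tkt (r = 0.79), Fndc4 (0.78) and Myo1e (0.77), with r of 0.64, 0.55 and 0.66 once group means were taken out. Tkt encodes transketolase of the pentose phosphate pathway and Myo1e an unconventional myosin.

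Colec12, a collectin with a collagen-like stalk (chr18:9707595-9882644, plus strand), varied most among mice. AD p38KO libraries had 0, 3.74, 5.82 and 8.93 CPM and AD p38+/+ libraries had 33.5, 1.59, 28.0 and 20.9 CPM. WT p38KO libraries had 2.12, 0.722, 2.37 and 0.573 CPM and WT p38+/+ libraries had 46.2, 29.5, 0.911 and 28.5 CPM. No p38KO library exceeded 8.93 CPM, and 6 of 8 p38+/+ libraries were above 20 CPM, but AD p38+/+ mouse 2 and WT p38+/+ mouse 3 were as low as the p38KO mice. The p38KO effect over both backgrounds was -2.62 on the log2 scale (95% interval -4.22 to -1.02, unadjusted p = 0.00301, limma adjusted p = 0.573) and did not pass. It was -2.10 in AD (limma adjusted p = 0.752, exact permutation p = 0.171, n = 4 each) and -3.13 in WT (limma adjusted p = 1, exact permutation p = 0.0857, n = 4 each). Across all alternatives it stayed between -4.33 and -2.14 over both backgrounds, with an adjusted p between 0.115 and 0.944. In AD alone it ran from -5.15 (with 0.0001 CPM as the constant) to -1.19, the value without AD p38KO mouse 1, whose library had 0 CPM. The AD effect was 0.41 (95% interval -1.19 to 2.01).

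Among all genes, Thoc1, which encodes a subunit of the mRNA export complex, was most like Colec12 (r = 0.84, rho = 0.81 over 16 libraries, and r = 0.80 with group means taken out). Its start lies 250 kb from the start of Colec12 on the same chromosome. Thoc1 had 18.4, 23.7, 21.9 and 52.1 CPM in AD p38KO and 37.6, 20.7, 43.5 and 45.0 CPM in AD p38+/+ libraries. For WT mice, p38KO libraries had 24.4, 25.1, 33.8 and 21.4 CPM and WT p38+/+ libraries had 60.4, 51.0, 31.5 and 45.8 CPM. The p38+/+ mice with little Colec12, AD mouse 2 and WT mouse 3, also had the least Thoc1 of their groups. Without the 2 libraries farthest from the median of Colec12, r was 0.78.

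For the other genes within 1 Mb, distances also run from start to start. Of these, Abhd3, at 934 kb, had r = 0.76. Usp14 at 285 kb, Rock1 at 357 kb and Esco1 at 859 kb, which lie between, had r of 0.39, 0.02 and 0.31. Gm2531 at 438 kb and Snrpd1 at 910 kb, also between, had -0.50 and -0.01. On the other side of Colec12, Fzd8 had -0.07 and Ccny 0.11. The next likest genes to Colec12 lie on other chromosomes, 1700028E10Rik (r = 0.83) and Eaf1 (0.82). The main Colec12 transcript, ENSMUST00000040069, is annotated as a target of nonsense-mediated decay and carried a median of 82.6% of the gene's CPM. The protein-coding ENSMUST00000234965 averaged 0.742 ± 0.957 CPM in AD p38KO and 2.99 ± 1.99 CPM in AD p38+/+ microglia, and 0.0671 ± 0.0778 CPM in WT p38KO against 4.78 ± 3.21 CPM in WT p38+/+ microglia (SD, n = 4 each).

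**Figure D4:**
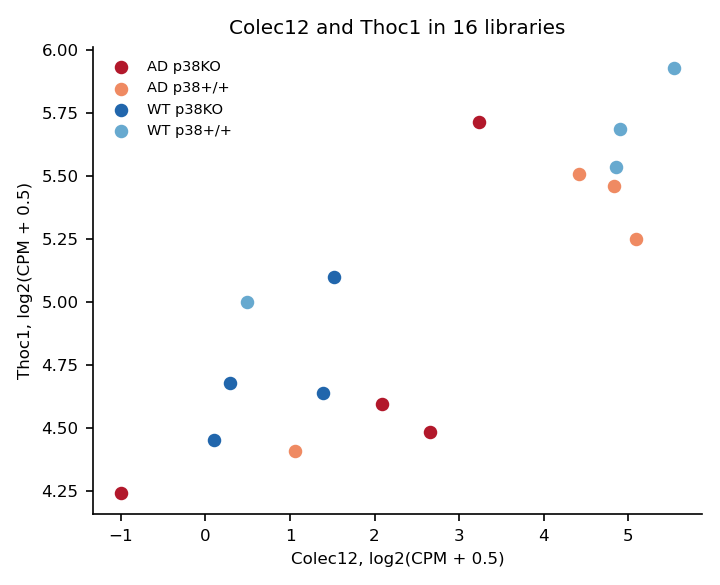
Thoc1 against Colec12, both as log2(CPM + 0.5), in the 16 libraries coloured by group. Libraries with more Colec12 have more Thoc1 (r = 0.84, and 0.80 with group means taken out), and AD p38+/+ mouse 2 (1.59 CPM of Colec12) and WT p38+/+ mouse 3 (0.911 CPM) lie with the p38KO libraries.

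The large endocytic receptors did not pass in any comparison. Stab1 (chr14:31139013-31168641, minus strand) had 322, 483, 451 and 518 CPM in AD p38KO and 367, 547, 390 and 485 CPM in AD p38+/+ libraries. In WT mice, p38KO libraries had 545, 538, 615 and 450 CPM and WT p38+/+ libraries had 572, 754, 536 and 351 CPM. Most AD libraries were below most WT libraries, with overlap, and the AD effect was -0.28 (95% interval -0.57 to 0.01, limma adjusted p = 0.431). The p38KO effect on Stab1 was -0.01 (95% interval -0.30 to 0.28).

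Lrp1 (chr10:127538161-127621148, minus strand) had 1046, 988, 997 and 1356 CPM in AD p38KO and 1336, 1100, 1043 and 823 CPM in AD p38+/+ libraries. In WT mice, p38KO libraries had 1129, 1199, 972 and 899 CPM and WT p38+/+ libraries had 990, 1498, 1489 and 993 CPM. The groups overlapped throughout, with an AD effect of -0.07 (95% interval -0.32 to 0.18) and a p38KO effect of -0.09 (-0.34 to 0.15). The likest genes to Lrp1 were Srcap (r = 0.86), Herc2 (0.83) and Ptprj (0.82), and to Stab1 Bsn (0.91), Tmem268 (0.84) and Arhgef2 (0.83), and with the group means taken out each r lay between 0.79 and 0.90. Stab1 shares its end with Nt5dc2 on the other strand, and reads there cannot be told apart without strand.

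Cd36 (chr5:17781690-17888801, minus strand), the fatty acid receptor, had 3.46, 5.41, 8.54 and 3.32 CPM in AD p38KO and 6.56, 4.14, 5.14 and 2.84 CPM in AD p38+/+ libraries. For WT mice, p38KO libraries had 5.04, 4.19, 2.09 and 4.44 CPM and WT p38+/+ libraries had 2.46, 4.69, 4.55 and 0.835 CPM. All groups overlapped. Its AD effect was 0.48 (95% interval -0.16 to 1.12, limma adjusted p = 0.571) and its p38KO effect 0.26 (95% interval -0.38 to 0.90). Without WT p38+/+ mouse 4, which had the least Cd36, these became 0.27 and 0.049, and without AD p38KO mice 1 and 4 together 0.71 and 0.49. Cd36 had r = 0.61 and rho = 0.39 with the sum of border-associated macrophage markers, whose part was not tested.

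At the level of transcripts, 27 of the receptors' 44 transcripts passed the filter. Over both p38 genotypes 2 of the 27 were called between AD and WT, against 130 of 34322 transcripts (0.379%). They were the main Cd68 transcript, which rose, and the single Cd93 transcript, ENSMUST00000099269, which fell by 1.52 on the log2 scale (limma adjusted p = 0.00478). With p38 none of the 27 was called by limma, against 0.122% of transcripts, with 4 at an unadjusted p under 0.05. Without p38 the Cd93 transcript alone was called (limma adjusted p = 0.0267), against 0.0728%. The protein-coding Lrp1 transcript ENSMUST00000121829, which took a median of 7.96% of the gene, had -0.44 for AD (limma adjusted p = 0.471). For p38KO over both backgrounds it had -0.51 (limma adjusted p = 0.492).

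Related genes were read in 6 lists. Their counts for AD stand beside 143 of 13912 genes called (1.03%). Among other scavenger receptors, 12 of 21 were tested and 2 rose in AD microglia over both p38 genotypes, with a list median of -0.05 on the log2 scale against -0.03 over all genes. Clec7a, the beta-glucan receptor dectin-1, averaged 51.5 ± 33.5 CPM in AD p38KO and 58.6 ± 32.6 CPM in AD p38+/+ microglia, against 11.6 ± 9.5 CPM in WT p38KO and 5.34 ± 1.05 CPM in WT p38+/+ microglia (SD, n = 4 each). Its AD effect was 2.77 on the log2 scale (limma adjusted p = 0.000399). Lgals3, a galectin that binds modified lipoproteins, rose by 1.29 (limma adjusted p = 0.00984). Cxcl16 had 0.31 (0.315) and the abundant lysosomal receptor Scarb2 had -0.01 (0.973).

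In the lipoprotein receptor family that Lrp1 belongs to, none of 8 other tested genes was called for AD by limma. An unadjusted p under 0.05 was found for 2 of them, against 1671 of 13912 genes. The list median was -0.13 on the log2 scale. Lrp4, a receptor of the agrin pathway at the neuromuscular junction, had an AD effect of -0.86 (limma adjusted p = 0.350) and the Wnt co-receptor Lrp6 had -0.25 (0.431).

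Of the other receptors and bridging proteins for apoptotic cells, 1 of 19 tested was called for AD, against 1.03% of all genes. Axl, a receptor tyrosine kinase that binds phosphatidylserine through Gas6, averaged 260 ± 61 CPM in AD p38KO and 269 ± 154 CPM in AD p38+/+ microglia, against 54.4 ± 19.2 CPM in WT p38KO and 37.6 ± 17.1 CPM in WT p38+/+ microglia (SD, n = 4 each). It rose by 2.52 on the log2 scale (limma adjusted p = 6.92e-06). Trem2, the lipid-sensing receptor of microglia, had 0.30 (limma adjusted p = 0.0752), Itgav -0.25 (0.158) and C1qb, the most abundant gene of the list, 0.04 (0.868).

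Of 16 tested ligands and partners, 2 were called for AD, both higher, against 1.03% of all genes called. Lpl, lipoprotein lipase, averaged 97.6 ± 18.4 CPM in AD p38KO and 143 ± 45 CPM in AD p38+/+ microglia, against 23.4 ± 12.7 CPM in WT p38KO and 20.9 ± 17.0 CPM in WT p38+/+ microglia (SD, n = 4 each), a rise of 2.58 (limma adjusted p = 9.92e-05). Apoe, a lipoprotein ligand of Lrp1, rose by 1.32 (limma adjusted p = 0.0199). The list median was 0.06.

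None of 21 engulfment adaptors and none of 10 transcription factors was called for AD by limma. An unadjusted p under 0.05 was held by 6 adaptors and 0 transcription factors, against 1671 of 13912 genes. The adaptor Tyrobp, through which Trem2 signals, had 0.36 (adjusted p = 0.135) and Fyn 0.62 (0.219), while the list medians were -0.00 for adaptors and -0.02 for transcription factors. For loss of p38 over both backgrounds, limma called none of the 86 tested genes of the 6 lists, against 11 of 13912 genes (0.0791%). An unadjusted p under 0.05 was held by 8 of the 86, against 821 of 13912 genes. Among the 86, the smallest unadjusted limma p was 0.00216, for Maf, a macrophage transcription factor. Maf had 0.32 on the log2 scale (limma adjusted p = 0.493), and next came Ppard with -0.69 (unadjusted p = 0.00450).

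**Figure D5:**
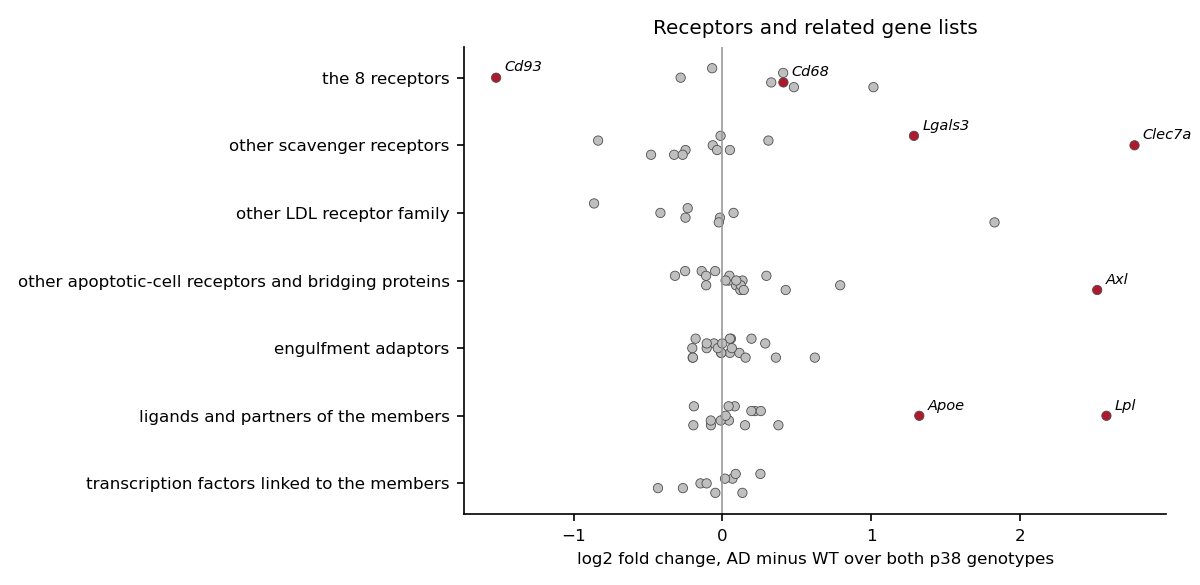
Fitted log2 fold change of AD minus WT over both p38 genotypes for each tested gene of the 8 receptors and of 6 related lists (points spread vertically for visibility). Filled and named genes passed an adjusted p of 0.05: Cd68, Clec7a, Lgals3, Axl, Lpl and Apoe to the right of 0 and Cd93 to the left.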

How the data were processed

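RNA from sorted microglia was sequenced as paired reads in 16 mice. The authors aligned reads with STAR to mm10, quantified Ensembl release 100 transcripts in Partek Flow 10.0.22.0828 and deposited CPM per gene and per transcript with 0.0001 added. That constant was subtracted. In each library 69.7 to 74.9% of gene values below 100 reads were whole multiples (within 0.02) of the CPM of 1 read, too few for a count test, so limma 3.58.1 (R 4.3.3) with a trended prior was run on log2(CPM + 0.5) over features with 1 CPM in 4 libraries, with 1 mean per group over all 16 libraries. Fold changes are on that scale, which understates changes of low genes. Exact permutation tests, read-ratio intervals and motif searches used SciPy 1.17.1, and those intervals and the limits for a count of 0 cover counting error only, while limma intervals cover the spread between mice. Exact permutation p-values were not adjusted for the number of tests. The fits were tested on simulated data. Groups and animal numbers came from the labels. Genes named from the related lists had the 3 smallest p for either effect or the highest level, and likest genes the 3 highest r for receptors above 5 CPM. A gene that the rule names in one related list is not reported here. The members and lists were chosen with earlier results of these data known. Alternatives changed the added constant, the filter, the scaling, library weights, covariates, the replicate block, the table and the libraries used.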

Additional observations from a re-analysis of the deposited data

Results flagged for a closer look

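Of 32 combinations of 8 receptors and 4 groups, 1 held a library far from its group: Lrp1 in AD p38KO mouse 4, at 1356 CPM, where the nearest of the other 3 libraries had 1046 CPM. Chance sets about 1 in 20 such groups apart. The same library had the fewest genes detected of all, 15485.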

How the results depend on the processing

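The AD calls of Cd68 and Cd93 (2 receptors) remained 2 whichever library was left out, and dropped to 1 (Cd68) with 0.0001 CPM as the constant (Cd93 -5.23, adjusted p = 0.117) or a filter of 5 CPM, which removes Cd93. The 1 call with p38 (Cd68) became 0 with the replicate block (adjusted p = 0.0726; other settings 0.0269 to 0.209), with 0.0001 CPM, no filter, median-of-ratios or quantile scaling, only the groups compared, the S0 covariate or without AD p38KO mice 1 and 4 together, and ranged from 0 to 1 without single libraries. The 1 call without p38 (Cd93) stayed 1 without any library and became 0 with 0.0001 CPM, quantile scaling (adjusted p = 0.186), only the groups compared, the replicate block with sex or the 5 CPM filter. Receptors' transcripts called for AD went to 1 under that filter (2 without any single library), and without p38 to 0, ranging from 0 to 1 without single libraries. Animal numbers were not said to mark a litter or batch, and only 2 of 24 pairs correlated above 0.1. Main effects and the interaction use every group, so the fit of only the groups compared could not be made for them.

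Directions that turned were all of uncalled values. For p38KO over both backgrounds, Scarb1 (-0.02) became 0.054 with library weights, 0.055 with the replicate block and sex, 0.021 without AD p38KO mice 1 and 4, and ranged from -0.080 to 0.029 without single libraries. Stab1 (-0.01) became 0.014 with weights and 0.014 with sex, 0.043 with the block and sex, 0.040 without those mice, and ranged from -0.11 to 0.075 without single libraries. Cd68 became 0.022 with the block and sex, and ranged from -0.048 to 0.012 without single libraries. For AD, Colec12 became -0.87 with 0.0001 CPM and ranged from -0.17 (without WT p38+/+ mouse 3) to 0.87 without single libraries. For p38KO in WT, Msr1 became -0.060 with sex as covariate and ranged from -0.25 (without WT p38+/+ mouse 3) to 0.51 without single libraries.

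With 4 mice per group and about 12290000 to 16430000 reads, receptors at a few CPM (Cd93, Msr1, Cd36) rest on few reads, and 0 reads in a library allow up to 0.183 to 0.244 CPM.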
